A study of Homo sapiens with 24 samples.

Results

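The nucleotide synthesis enzymes described here are 9 genes that supply deoxynucleotides for S phase, followed through the knockdown of the RNA-binding protein IGF2BP1 in 4 human cancer cell lines. They were taken by gene symbol from the 58174 genes listed for each line, and all 9 were found and tested in every line: RRM1, RRM2, TYMS, DUT, DTYMK, TK1, DCK, CTPS1 and SAMHD1. A549 derives from a lung cancer, ES2 from an ovarian cancer, MV3 from an amelanotic melanoma and PANC1 from a pancreas cancer. Cells of each line received a control siRNA (siC) or an siRNA pool directed at IGF2BP1 (siI1), and total RNA depleted of ribosomal RNA was sequenced in 3 libraries per arm, 24 libraries in 8 groups. RNA was taken 72 h after transfection from A549, ES2 and MV3 and 96 h after transfection from PANC1, so that line and time cannot be told apart for PANC1. Every sample was transfected, and no untransfected cells are among them.

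DNA synthesis needs the 4 deoxynucleoside triphosphates in balanced supply. Ribonucleotide reductase, built of the large catalytic subunit RRM1 and the small radical-bearing subunit RRM2, reduces ribonucleotides to deoxyribonucleotides, and thymidylate is then made by a branch of its own. In that branch DUT yields dUMP from dUTP, TYMS methylates dUMP to dTMP, and DTYMK phosphorylates dTMP whether it came from TYMS or from thymidine salvaged by TK1. DCK salvages deoxycytidine and purine deoxynucleosides, CTPS1 aminates UTP to CTP, and SAMHD1 works the other way, cleaving deoxynucleoside triphosphates. Several of these genes are known to be transcribed most strongly around S phase, through E2F and CCAAT-binding factors.

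Promoter sequences are shown for DTYMK and TYMS, the only members lower in all 4 lines, and for RRM1 and RRM2, whose changes parted in PANC1. They are the 150 bases before a gene start that RefSeq lists for each gene (GRCh38.p14), read 5′ to 3′ on the gene's strand. For RRM2 another listed start lies further upstream and is not shown. Capitals mark the words searched for: CCAAT, the E2F words TTTCCCGC, TTTCGCGC, TTTGCCGC and TTTGGCGC, and the words TTTGAA and TTCGAA of the cell cycle homology region, each on either strand.
DTYMK, chr2:241686816-241686965, minus strand: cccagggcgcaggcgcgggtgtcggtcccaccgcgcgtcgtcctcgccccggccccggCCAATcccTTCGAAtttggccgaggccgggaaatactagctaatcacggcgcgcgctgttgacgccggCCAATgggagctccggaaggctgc
TYMS, chr18:657503-657652, plus strand: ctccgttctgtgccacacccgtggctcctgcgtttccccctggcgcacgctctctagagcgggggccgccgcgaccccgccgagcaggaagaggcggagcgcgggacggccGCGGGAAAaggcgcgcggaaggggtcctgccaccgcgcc
RRM1, chr11:4094535-4094684, plus strand: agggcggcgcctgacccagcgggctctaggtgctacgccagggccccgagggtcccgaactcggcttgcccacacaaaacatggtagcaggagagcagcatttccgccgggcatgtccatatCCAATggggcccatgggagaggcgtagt
RRM2, chr2:10122589-10122738, plus strand: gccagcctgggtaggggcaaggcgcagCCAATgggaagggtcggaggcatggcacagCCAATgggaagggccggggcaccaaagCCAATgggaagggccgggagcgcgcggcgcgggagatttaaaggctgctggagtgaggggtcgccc
DTYMK held CCAAT at bases -92 and -24 from the start, and TTCGAA, which reads the same on both strands, at -84. RRM2 had a row of 3 CCAAT words at -123, -93 and -66, and RRM1 had 1 at -28. TYMS held no CCAAT, but 1 E2F word on the opposite strand, GCGGGAAA, at -39. RefSeq lists 15 windows of 300 bases (250 before and 50 after a start) for the 9 members. An E2F word was found in 3 of these windows (of TYMS, DUT and DCK), against 3.31% of all 35116 windows listed. CCAAT was found in 6 of 15 windows, of RRM1, RRM2, DTYMK, TK1 and SAMHD1, against 34.6% of all windows. TTTGAA or TTCGAA was found in 3 of 15, against 16.4%, and GGGCGG in 10 of 15, against 45.0%. A match describes the letters only.

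Levels are FPKM, fragments per kilobase of a gene after correction for library size, with reads assigned to genes numbering 3105215 to 4553326 per library in A549, 6421764 to 8419467 in ES2, 15572492 to 20082702 in MV3 and 6532175 to 8472851 in PANC1. A member rested on 48 to 4058 reads per library, fewest for DTYMK and DCK in A549. IGF2BP1 was lower in all 3 siI1 libraries of every line, with log2 fold changes from -1.32 in A549 to -1.83 in PANC1. The melanocyte genes SOX10, TYR and S100B were listed at 0 in MV3 and MITF reached no more than 0.337 FPKM there. These libraries thus do not carry these markers of the melanocyte lineage, and the authors list MV3 as an amelanotic melanoma. The keratin KRT8 reached at least 235 FPKM in every A549 and PANC1 library. All 5 epithelial genes listed averaged at least 1 FPKM in A549 and PANC1, though EPCAM only 1.27 in A549 and KRT7 only 2.53 in PANC1. The lung genes NKX2-1, SFTPB and SFTPC were listed at 0 in A549. Of 4 ovarian genes, 0 averaged at least 1 FPKM in ES2 (highest PAX8 at 0.20). Of 5 pancreatic genes, 1 did so in PANC1 (PDX1 at 1.8). The sum of FPKM was 526337 to 756438 in the siC libraries of PANC1 and 977547 to 1191707 in its siI1 libraries, while the sums of both arms overlapped in the other lines. Rescaling PANC1 to equal sums shifted the median effect over all genes, on the log2 scale, from -0.04 to -0.68 and the calls from 2131 lower and 1796 higher to 8870 lower and 96 higher, so that values for PANC1 are read beside this shift. Replicates 2 and 3 of PANC1 siC differed most among replicate pairs, with a chi-square per gene of 15.1 against at most 5.87 for the other pairs, and replicate 2 had the highest sum of FPKM in that group. Members in PANC1 were 4 lower and 2 higher without siC replicate 2, and 4 lower and 0 higher without siC replicate 3. Centring libraries on their median gene instead gave 1561 lower and 2343 higher calls in PANC1, in A549 1220 lower and 1384 higher in place of 1441 and 1092, and in MV3 2738 lower and 3193 higher in place of 3190 and 2663. ES2 counted 2201 lower and 1772 higher, against 1419 and 1780 at equal sums.

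In siC cells, TK1 was the most abundant member in A549 and MV3, TYMS in ES2 and RRM2 in PANC1. DCK was the least abundant in A549, ES2 and MV3, and SAMHD1 in PANC1. The highest mean exceeded the lowest by 13.6-fold in A549, by 16.2-fold in ES2, by 13.3-fold in MV3 and by 18.4-fold in PANC1. In A549 the order was TK1 at 83.8 FPKM, TYMS at 39.2, RRM1 at 31.2, RRM2 at 25.6, CTPS1 at 24.1, DTYMK at 19.9, SAMHD1 at 18.3, DUT at 16.9 and DCK at 6.15. RRM2 and CTPS1 overlapped there, as did DTYMK with SAMHD1 and SAMHD1 with DUT, and the other 5 neighbouring pairs stood apart. In ES2, TYMS led at 108.6 FPKM, ahead of RRM2 at 55.7 and TK1 at 52.2, whose ranges overlapped. DUT, RRM1 and DTYMK followed at 41.4, 39.8 and 38.5 FPKM, each overlapping the next, and CTPS1, SAMHD1 and DCK came last, each apart from the next. In MV3, TK1 at 128.7 FPKM was followed by RRM1 at 53.6, DTYMK at 51.6, RRM2 at 50.2 and TYMS at 46.0 FPKM, and only DTYMK and RRM2 overlapped. In PANC1, RRM2 at 86.4 and TK1 at 83.3 FPKM overlapped, as did TYMS at 49.4 and CTPS1 at 44.5 FPKM, with the other 6 neighbouring pairs apart.

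**Figure D1:**
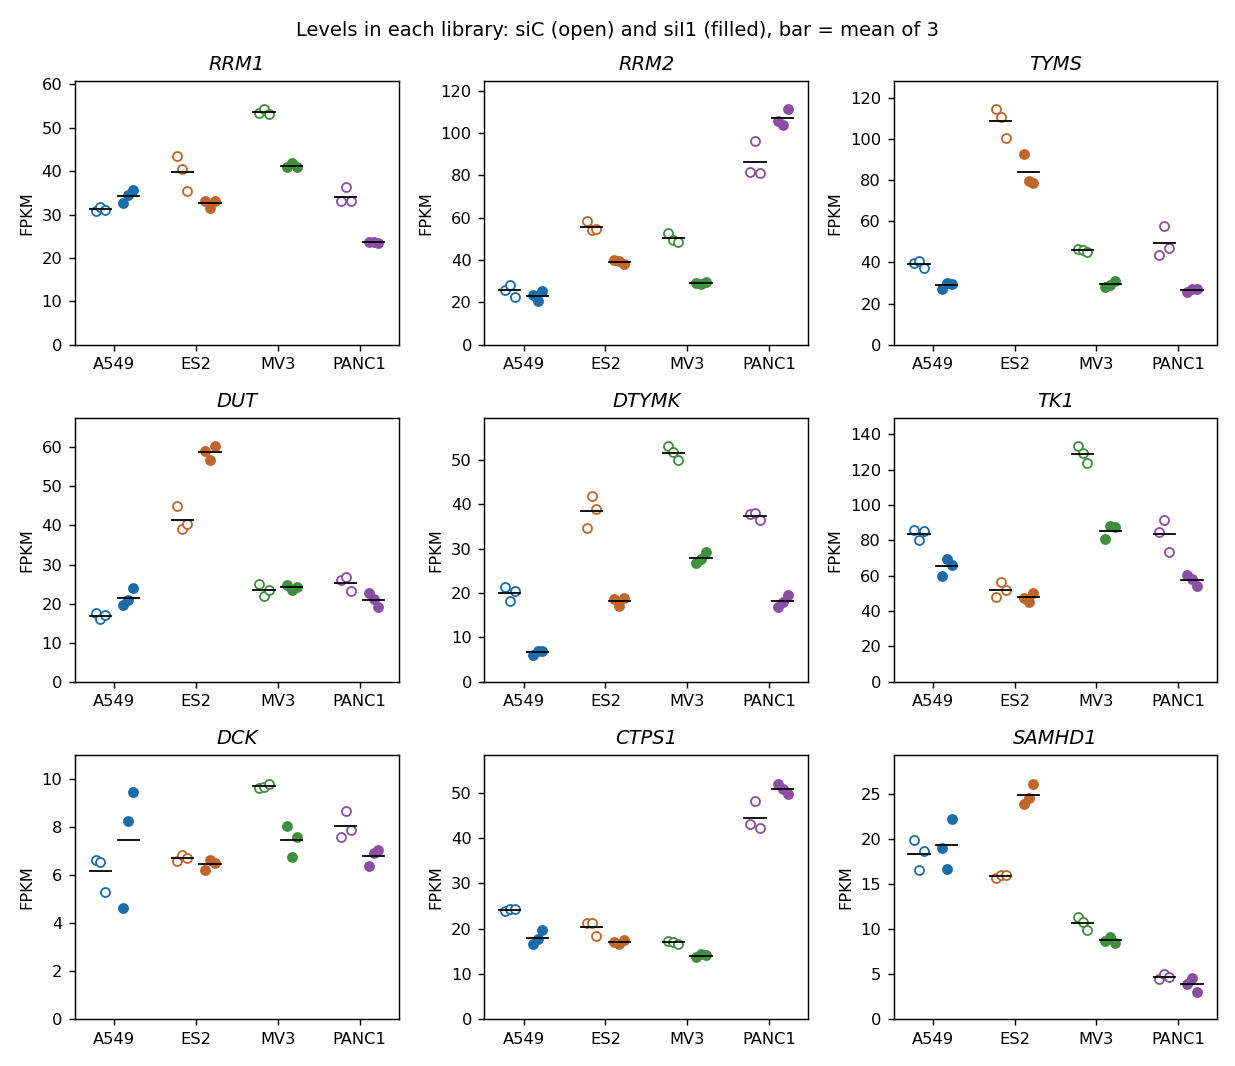
FPKM of the 9 members in each of the 24 libraries, by cell line, with siC libraries as open and siI1 libraries as filled circles and the mean of 3 as a bar. For DTYMK and TYMS all siI1 libraries lie below all siC libraries within each line, while for RRM2 in PANC1 (where the sign turned at equal sums of FPKM) and for SAMHD1 and DUT in ES2 they lie above them.

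After the knockdown most of the members that passed the test were lower. Of 36 results, 9 members in 4 lines, 20 were lower, 3 were higher and 13 did not pass an adjusted p of 0.05 (limma, with Benjamini-Hochberg adjustment over every gene tested in that line). In A549, 4 members were lower (DTYMK, TYMS, CTPS1 and TK1) and 0 higher, where 7.83% of all genes tested were lower and 5.93% higher. ES2 had 4 lower members (DTYMK, RRM2, TYMS and RRM1) and 2 higher (SAMHD1 and DUT), against 13.0% and 10.5% of all genes. In MV3, 8 members were lower, DUT being the exception, and 0 higher, against 19.5% and 16.3%. PANC1 had 4 lower members (DTYMK, TYMS, RRM1 and TK1) and 1 higher (RRM2), against 13.4% and 11.3%. At equal sums of FPKM all 9 were lower there and 0 higher, beside 8870 lower and 96 higher of 16238 genes tested. The median log2 fold change of the 9 members was -0.14 for A549, -0.24 for ES2, -0.37 for MV3 and -0.28 for PANC1, beside medians of all genes between -0.04 and 0.01. Lower in all 4 lines were 2 of the 9, DTYMK and TYMS, against 2.51% of the 12816 genes tested in all lines, and 0 of the 9 were higher in all 4, against 0.577%. For bulk RNA, fewer cells in S phase and less RNA per cell cannot be told apart. For comparison, a list of 23 replication licensing and fork genes had 8 lower in A549 (median log2 fold change -0.25), 9 lower and 2 higher in ES2 (median -0.18), 23 lower in MV3 (median -0.58) and 19 lower in PANC1 (median -0.56), or 23 lower in PANC1 at equal sums of FPKM. A difference between that list and the members was not tested. Leaving out 1 library lowered the count of lower members to 2 in A549, without siC replicate 1 or siC replicate 3, and to 2 in ES2, without siC replicate 1, siC replicate 2, siI1 replicate 2 or siI1 replicate 3. The single higher member of PANC1 was lost without any library but siC replicate 2, without which 2 were higher.

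**Figure D2:**
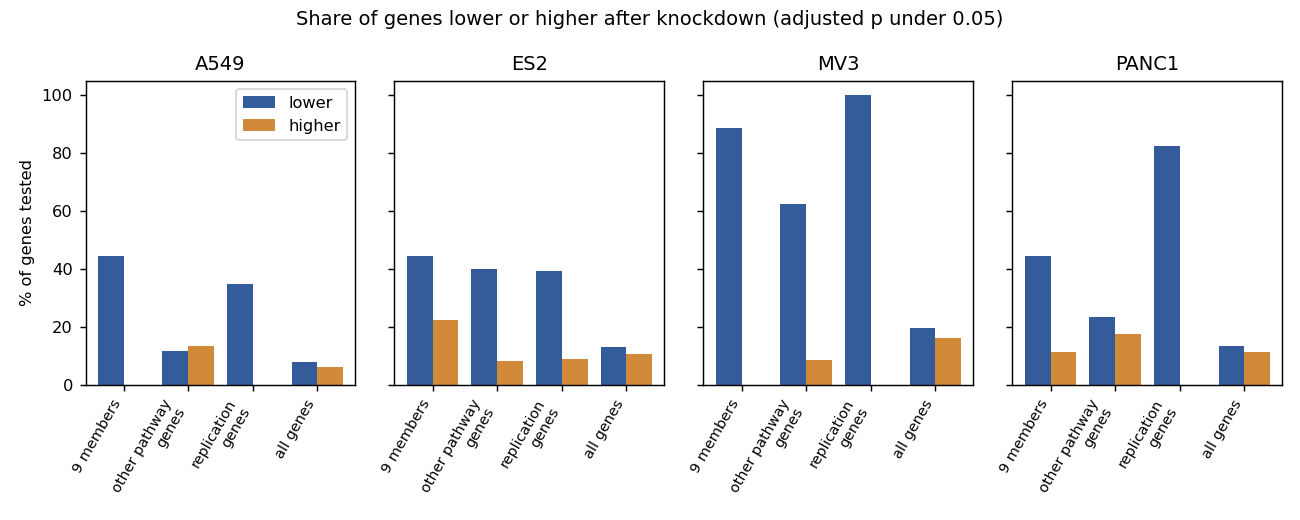
Share of genes tested, in %, that were lower or higher after knockdown at an adjusted p under 0.05, for the 9 members, the other nucleotide pathway genes, the replication list and all genes, in each line. The share of lower members is 44.4% in A549, ES2 and PANC1 and 88.9% in MV3.

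DTYMK, thymidylate kinase, showed the largest fall of the 9 members in each line. In A549, DTYMK stood at 21.3, 18.1 and 20.4 FPKM in the siC libraries and at 6.09, 6.91 and 6.91 FPKM in the siI1 libraries. The ES2 libraries gave 34.7, 41.9 and 38.86 FPKM with siC and 18.7, 17.1 and 18.8 FPKM with siI1. No siI1 value came near the siC values in either line. MV3 held 53.1, 51.8 and 49.99 FPKM with siC and 26.8, 27.8 and 29.2 FPKM with siI1, and PANC1 37.7, 38.0 and 36.5 against 16.8, 18.1 and 19.5 FPKM. The groups were again apart. The log2 fold change was -1.52 (SE 0.0892, adjusted p = 0.000699) in A549, a 2.86-fold lower level. It was -1.06 (SE 0.08, adjusted p = 0.000566) in ES2, -0.87 (SE 0.0411, adjusted p = 0.000113) in MV3 and -1.03 (SE 0.0651, adjusted p = 0.000754) in PANC1, that is 2.08-, 1.83- and 2.04-fold lower. The fall differed between lines by Cochran's Q over the 4 effects (adjusted p = 0.0232). In A549 the siI1 values rest on 48 to 77 reads per library. DTYMK (ENSG00000168393) lies on the minus strand at chr2:241675747-241686944.

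TYMS, thymidylate synthase, the target of fluoropyrimidine drugs, was lower in all 4 lines by a smaller margin. Its siC libraries held 39.6, 40.6 and 37.3 FPKM in A549, and its siI1 libraries 27.3, 29.8 and 29.7. In ES2, where TYMS was most abundant, 114.5, 110.8 and 100.4 FPKM with siC faced 92.9, 79.9 and 78.5 FPKM with siI1. The lowest siC library of ES2 was thus above its highest siI1 library by a narrow gap. In MV3 the values were 46.7, 46.2 and 45.1 against 28.0, 29.0 and 31.2 FPKM, and in PANC1 43.6, 57.5 and 47.0 against 25.6, 27.1 and 27.2 FPKM. Both lines kept the groups well apart, although the siC libraries of PANC1 were spread. The log2 fold changes were -0.43 in A549 (SE 0.0593, adjusted p = 0.00744), -0.37 in ES2 (SE 0.0828, adjusted p = 0.0217), -0.64 in MV3 (SE 0.0444, adjusted p = 0.000245) and -0.87 in PANC1 (SE 0.105, adjusted p = 0.00292). A difference between lines was not called (adjusted p = 0.0598). In ES2 the call was lost without siC replicate 1 (-0.33, adjusted p = 0.0678), siC replicate 2 (-0.36, adjusted p = 0.0673), siI1 replicate 2 (-0.34, adjusted p = 0.0729) or siI1 replicate 3 (-0.33, adjusted p = 0.0744). It was also lost without an intensity trend (adjusted p = 0.0501).

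TYMS lies at chr18:657653-673578 on the plus strand and shares 967 exonic bases, 39.9% of its own, with ENOSF1, a protein-coding gene on the opposite strand. Whether strand was used in counting is not given in the sources used here, so how reads from these exons were assigned is not known. The mean of ENOSF1 was 6.56 FPKM with siC and 9.16 with siI1 in A549, 18.7 and 15.8 in ES2, 4.23 and 4.53 in MV3, and 4.27 and 3.56 in PANC1. It rose in A549 (log2 fold change 0.45, adjusted p = 0.0194), fell in ES2 (-0.23, adjusted p = 0.0423), as TYMS did, and did not pass the test in MV3 (0.09) or PANC1 (-0.22). The part of shared reads in the values of TYMS was not tested. Its level was below that of TYMS in every line and arm.

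TK1, the cytosolic thymidine kinase, was lower in A549, MV3 and PANC1. A549 libraries held 85.9, 80.3 and 85.2 FPKM with siC and 59.6, 69.7 and 66.3 FPKM with siI1. In MV3, 133, 129 and 124 FPKM with siC compared with 80.6, 88.2 and 87.4 FPKM with siI1, and in PANC1 84.7, 91.7 and 73.5 compared with 60.6, 58.3 and 54.2 FPKM. The groups did not overlap in these lines. In ES2 the siC libraries held 48.0, 56.3 and 52.1 FPKM and the siI1 libraries 47.3, 45.4 and 50.3 FPKM, and these overlapped. The log2 fold change was -0.36 in A549 (SE 0.0684, adjusted p = 0.0201), -0.59 in MV3 (SE 0.0464, adjusted p = 0.000365) and -0.52 in PANC1 (SE 0.092, adjusted p = 0.00993). In ES2 it was -0.13 with a 95% interval from -0.30 to 0.04 (adjusted p = 0.254), and the effects differed between lines (Cochran's Q, adjusted p = 0.034). The A549 call was lost without siC replicate 1 (-0.34, adjusted p = 0.0746), siC replicate 3 (-0.35, adjusted p = 0.0697) or siI1 replicate 3 (-0.38, adjusted p = 0.0562). It was also lost with the replicate block (adjusted p = 0.0811) and without an intensity trend (adjusted p = 0.0727). TK1 (ENSG00000167900) lies at chr17:78174091-78187233 on the minus strand.

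DUT, the dUTP pyrophosphatase that yields dUMP and keeps uracil out of DNA, was not called lower in any line with the settings used throughout. In ES2 it rose from 44.9, 39.0 and 40.3 FPKM with siC to 59.1, 56.9 and 60.2 FPKM with siI1, with no overlap, a log2 fold change of 0.50 (SE 0.0617, adjusted p = 0.00273). A549 libraries held 17.5, 15.9 and 17.1 FPKM with siC and 19.6, 20.8 and 24.04 FPKM with siI1. These also stood apart, yet the log2 fold change of 0.34 missed the threshold (adjusted p = 0.0559). In MV3 the libraries overlapped, at 25.1, 22.1 and 23.4 FPKM with siC and 24.8, 23.4 and 24.4 FPKM with siI1, with a log2 fold change of 0.04 (95% interval -0.09 to 0.17). In PANC1, 26.0, 26.8 and 23.3 FPKM with siC stood above 22.7, 21.2 and 19.2 FPKM with siI1, with a log2 fold change of -0.26 (adjusted p = 0.0653). Both of these depended on the settings. DUT was called higher in A549 at a minimum mean of 1 FPKM, at equal sums of FPKM, after median centring and on recovered reads (adjusted p = 0.0491, 0.0322, 0.0293 and 0.00522). It was called lower in PANC1 with the replicate block (adjusted p = 0.0454), on recovered reads (adjusted p = 0.0252) and at equal sums of FPKM (adjusted p = 0.00162). The effects differed between lines (Cochran's Q, adjusted p = 0.0144). DUT (ENSG00000128951, chr15:48331011-48343373, plus strand) has 8 pseudogenes in the tables, RRM2 has 3 and TYMS 2, and since reads can be shared with such copies the levels of these members are uncertain by an amount not measured here. No pseudogene exceeded 2.76 FPKM in any library.

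RRM1, the large subunit of ribonucleotide reductase, was lower in ES2, MV3 and PANC1 but not in A549. A549 libraries held 30.9, 31.7 and 31.0 FPKM with siC and 32.6, 34.4 and 35.6 FPKM with siI1. The siI1 values lay above the siC values there, with a log2 fold change of 0.13 (95% interval 0.01 to 0.25, adjusted p = 0.164) that missed the threshold. ES2 gave 43.5, 40.4 and 35.5 FPKM with siC and 33.1, 31.5 and 33.1 with siI1. MV3 gave 53.4, 54.3 and 53.1 against 40.9, 41.9 and 41.0 FPKM, and PANC1 33.0, 36.3 and 33.0 against 23.6, 23.6 and 23.5 FPKM. All siI1 libraries of these 3 lines were below their siC libraries. The log2 fold change was -0.28 in ES2 (SE 0.0781, adjusted p = 0.0456), -0.37 in MV3 (SE 0.0254, adjusted p = 0.000236) and -0.52 in PANC1 (SE 0.0556, adjusted p = 0.00215). The effects differed between lines (Cochran's Q, adjusted p = 0.01). In ES2 the call was lost without siC replicate 1 (-0.22, adjusted p = 0.0999), siC replicate 2 (-0.27, adjusted p = 0.117), siI1 replicate 1 (-0.29, adjusted p = 0.0979), siI1 replicate 2 (-0.26, adjusted p = 0.13) or siI1 replicate 3 (-0.29, adjusted p = 0.108). Among the other settings, the ES2 call was lost with no filter (adjusted p = 0.0739), at equal sums of FPKM (adjusted p = 0.137) and after median centring (adjusted p = 0.0558). It was also lost with the replicate block (adjusted p = 0.086) and without an intensity trend (adjusted p = 0.0893), but kept on recovered reads (adjusted p = 0.00225). After median centring RRM1 was called higher in A549 (0.18, adjusted p = 0.047). RRM1 (ENSG00000167325) lies at chr11:4094707-4138932 on the plus strand.

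RRM2, the small subunit, whose amount is known to limit the enzyme in cycling cells, fell in ES2 and MV3 and rose in PANC1, where the sign turned at equal sums of FPKM. ES2 libraries held 58.4, 54.1 and 54.5 FPKM with siC and 40.0, 39.4 and 37.9 FPKM with siI1. MV3 libraries held 52.6, 49.4 and 48.7 FPKM with siC and 28.9, 28.5 and 29.5 FPKM with siI1. Both lines showed wide gaps between the arms. PANC1, with the highest level of the 4 lines, went the other way, from 81.6, 96.2 and 81.3 FPKM with siC to 105.6, 103.7 and 111.2 FPKM with siI1, without overlap. In A549, 26.0, 28.3 and 22.5 FPKM with siC overlapped 23.3, 20.7 and 25.4 FPKM with siI1. The log2 fold change was -0.50 in ES2 (SE 0.0466, adjusted p = 0.00107), -0.78 in MV3 (SE 0.0369, adjusted p = 0.000113), 0.31 in PANC1 (SE 0.0797, adjusted p = 0.0343) and -0.14 in A549 (95% interval -0.41 to 0.13, adjusted p = 0.479). RRM2 differed between lines at the smallest adjusted p of the 9 members (Cochran's Q, adjusted p = 0.00496). RRM2 (ENSG00000171848) lies at chr2:10120698-10211725 on the plus strand, a GENCODE span that includes the promoter stretch shown above.

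The call of RRM2 as higher in PANC1 was lost in 5 of 6 fits that left out 1 library, and its sign depended on scaling. The log2 fold change stayed between 0.27 and 0.39 in the 6 fits. Calls over all genes in PANC1 moved as well, to 1237 to 1954 lower against 2131, and 1041 to 1888 higher against 1796. The RRM2 call was lost without siC replicate 1 (0.27, adjusted p = 0.116), siC replicate 3 (0.27, adjusted p = 0.0882), siI1 replicate 1 (0.32, adjusted p = 0.0922), siI1 replicate 2 (0.33, adjusted p = 0.0756) or siI1 replicate 3 (0.28, adjusted p = 0.0998). Without siC replicate 2, the library with the highest sum of FPKM among the siC libraries, it was kept (0.39, adjusted p = 0.00837). With no filter, with the replicate block or without an intensity trend it was lost (adjusted p = 0.0659, 0.0739 and 0.0708). With PANC1 libraries scaled to equal sums of FPKM the log2 fold change turned to -0.44 (adjusted p = 0.0281), which is 0.24 above the median of all genes on that scale. The rise of SAMHD1 and of DUT in ES2 kept its call in each leave-one-out fit.

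The ratio of RRM2 to RRM1, taken within each library and so free of library scaling, moved apart in PANC1. It was 2.47, 2.65 and 2.46 in the siC libraries of PANC1 and 4.48, 4.40 and 4.73 in the siI1 libraries, a mean of 2.53 ± 0.108 against 4.54 ± 0.171 (SD, n = 3). In the other lines the ratio was lower with siI1. MV3 went from 0.938 ± 0.0406 to 0.703 ± 0.02, ES2 from 1.404 ± 0.114 to 1.20 ± 0.053 and A549 from 0.82 ± 0.0865 to 0.677 ± 0.0651 (SD, n = 3 each). The libraries of the 2 arms did not overlap in any of the 4 lines. RRM2B, the p53-inducible small subunit that can stand in for RRM2, was higher in MV3 (log2 fold change 0.37, adjusted p = 0.000495) and ES2 (0.32, adjusted p = 0.0361), the lines in which RRM2 fell. The ES2 call of RRM2B was lost in each of the 6 fits that left out a library, with log2 fold changes from 0.24 to 0.37 and adjusted p from 0.0501 to 0.114. RRM2B stood at 0.12 in A549 (adjusted p = 0.207) and 0.13 in PANC1 (adjusted p = 0.157), which missed the threshold.

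**Figure D3:**
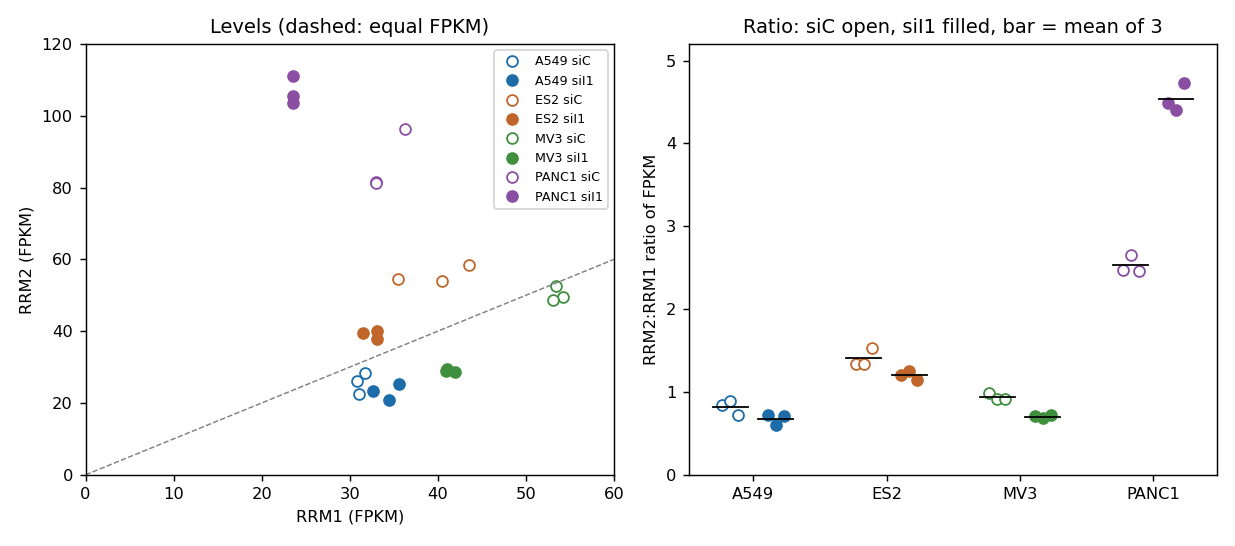
Left, RRM2 against RRM1 in FPKM for each library, siC open and siI1 filled, with a dashed line of equal FPKM. Right, the RRM2:RRM1 ratio per library with the mean of 3 as a bar. PANC1 libraries lie between 2.46 and 2.65 with siC and between 4.40 and 4.73 with siI1, and libraries of the other lines stay below 1.54.

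DCK, which phosphorylates deoxycytidine and activates cytidine analogue drugs, had the lowest siC level of the members in 3 lines and was lower in MV3 alone among the 4 tests. In MV3 it ranged from 9.64 to 9.81 FPKM with siC and from 6.74 to 8.04 FPKM with siI1, with a log2 fold change of -0.36 (SE 0.0648, adjusted p = 0.00655). In A549 the siI1 libraries spread from 4.62 to 9.45 FPKM around the siC libraries at 5.30 to 6.61 FPKM, and the 95% interval of the log2 fold change ran from -0.41 to 0.82. In ES2 the arms overlapped as well. PANC1 libraries fell from 7.58 to 8.67 FPKM with siC to 6.39 to 7.03 with siI1, with a log2 fold change of -0.23 that missed the threshold (adjusted p = 0.0755). A difference between lines was not called (Cochran's Q, adjusted p = 0.0987). DCK (ENSG00000156136) lies at chr4:70992538-71030914 on the plus strand, and 199 of its exonic bases, 6.41%, are shared with MOB1B on the same strand.

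CTPS1, which makes CTP, was lower in A549 and MV3. It ranged from 23.8 to 24.3 FPKM with siC and from 16.5 to 19.7 FPKM with siI1 in A549, and from 16.6 to 17.2 and from 13.6 to 14.3 FPKM in MV3. The log2 fold changes were -0.42 (SE 0.0742, adjusted p = 0.0167) and -0.27 (SE 0.0334, adjusted p = 0.00169). In ES2 the siI1 libraries, 16.5 to 17.5 FPKM, were below the siC libraries, 18.3 to 21.3 FPKM, with a log2 fold change of -0.24 that missed the threshold (adjusted p = 0.0534). PANC1, with the highest CTPS1 level, went from 42.3 to 48.2 FPKM with siC to 49.9 to 52.1 FPKM with siI1, a log2 fold change of 0.20 (adjusted p = 0.0708) that turned to -0.55 (adjusted p = 0.0115) at equal sums of FPKM, 0.13 above the median of all genes on that scale. The effects differed between lines (Cochran's Q, adjusted p = 0.019). The A549 call was lost without siC replicate 1 (-0.43, adjusted p = 0.0579), siC replicate 2 (-0.41, adjusted p = 0.0521), siC replicate 3 (-0.41, adjusted p = 0.0584) or siI1 replicate 2 (-0.41, adjusted p = 0.0614). Calls were gained in ES2 without siC replicate 3 (-0.31, adjusted p = 0.0173) and in PANC1 without siC replicate 2 (0.25, adjusted p = 0.0194). CTPS1 also depended on the settings. It was called lower in ES2 at a minimum mean of 1 FPKM (adjusted p = 0.0475) and on recovered reads (adjusted p = 0.01). In PANC1 it was called higher after median centring (0.27, adjusted p = 0.0258) and on recovered reads (0.20, adjusted p = 0.0346). The A549 call was lost with the replicate block (adjusted p = 0.0566) and without an intensity trend (adjusted p = 0.0542). CTPS1 (ENSG00000171793) lies at chr1:40979300-41012565 on the plus strand.

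SAMHD1, the triphosphohydrolase that lowers deoxynucleotide pools, is known to restrict retroviruses in non-dividing cells. It rose in ES2, from 15.7, 16.0 and 16.0 FPKM with siC to 23.9, 24.6 and 26.1 FPKM with siI1, a log2 fold change of 0.63 (SE 0.0492, adjusted p = 0.000619). In MV3 it fell from 11.3, 10.8 and 9.89 FPKM to 8.70, 9.06 and 8.47 FPKM, a log2 fold change of -0.27 (SE 0.0564, adjusted p = 0.0124). The arms stood apart in both lines, in opposite directions. In A549 the libraries overlapped, at 19.8, 16.5 and 18.6 FPKM with siC and 19.0, 16.6 and 22.2 FPKM with siI1. In PANC1 they did so too, at 4.47, 4.99 and 4.61 FPKM with siC and 3.86, 4.59 and 3.03 FPKM with siI1 (log2 fold change -0.28, 95% interval -0.62 to 0.06, adjusted p = 0.205). The effects differed between lines (Cochran's Q, adjusted p = 0.00549). SAMHD1 (ENSG00000101347) lies at chr20:36890229-36951893 on the minus strand.

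**Figure D4:**
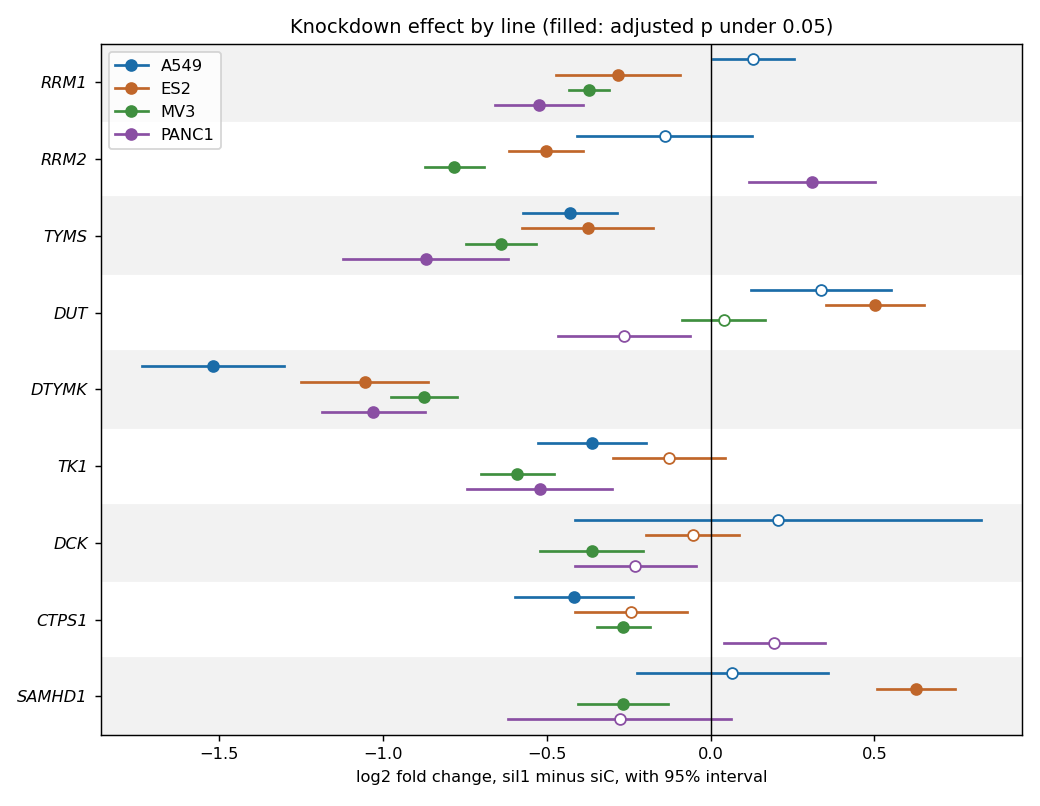
log2 fold change of each member in each line, siI1 minus siC on the log2(FPKM + 0.5) scale, with its 95% interval, filled where the adjusted p was under 0.05. DTYMK and TYMS lie left of 0 in all 4 lines, and RRM2 spans from -0.78 in MV3 to 0.31 in PANC1, or -0.44 in PANC1 at equal sums of FPKM.

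Across lines the effect of the knockdown differed for 7 of the 9 members at an adjusted p under 0.05, against 28.0% of the genes tested in all 4 lines. TYMS and DCK were the members not called, but TYMS was called in 1 fit of all lines with an interaction (adjusted p = 0.00667) and at equal sums of FPKM (adjusted p = 0.0179), and DCK at equal sums (adjusted p = 0.0293). The widest span of effects was that of RRM2, 1.09 on the log2 scale, followed by SAMHD1 with 0.91 and DUT with 0.77. DTYMK spanned 0.64, all on the side of a fall. For CTPS1 the difference was not called at equal sums of FPKM (adjusted p = 0.0994).

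The other genes of nucleotide metabolism, 52 by list, give the setting of the members. Beside all genes, of which 7.83% were lower and 5.93% higher in A549, 13.0% and 10.5% in ES2, 19.5% and 16.3% in MV3, and 13.4% and 11.3% in PANC1, 11.5% of these were lower and 13.5% higher in A549, 40.0% and 8% in ES2, 62.5% and 8.33% in MV3, and 23.5% and 17.6% in PANC1. In counts, 6 of 52 tested were lower and 7 higher in A549, 20 of 50 lower and 4 higher in ES2, 30 of 48 lower and 4 higher in MV3, and 12 of 51 lower and 9 higher in PANC1. Their medians were -0.04, -0.16, -0.28 and -0.07 on the log2 scale. At equal sums of FPKM, 42 of 52 were lower and 0 higher in PANC1, beside 8870 lower and 96 higher of 16238 genes tested. The counts moved when 1 library was left out: without siC replicate 1, for example, 3 were lower and 3 higher in A549 and 4 were lower in PANC1, and without siI1 replicate 2, 11 were lower in ES2 and 3 higher in A549. The 8 folate cycle genes had 1 lower in A549, 7 in MV3 and 4 each in ES2 and PANC1, and 0 higher. Of the 13 listed genes of purine synthesis, 12 or more of them tested per line, 1 was lower and 3 higher in A549, 5 and 1 in ES2, 8 and 1 in MV3, and 2 and 0 in PANC1. Of the 10 nucleoside and nucleotide kinases outside the member list, 3 were higher and 0 lower in A549, 1 higher and 2 lower in ES2, and 2 higher and 3 lower in MV3. In PANC1, 5 of these kinases were higher and 1 lower, or 0 higher and 7 lower at equal sums of FPKM. Pyrimidine synthesis, 4 genes, had 2 lower in each of ES2, MV3 and PANC1 and 0 in A549. Among 9 listed salvage and transport genes, of which 7 to 9 were tested per line, 2, 5, 5 and 2 were lower in A549, ES2, MV3 and PANC1, and 1 and 4 were higher in A549 and PANC1. Among 7 listed genes of pool cleaning and nucleotidases, 2, 2, 5 and 1 were lower and 1, in ES2, was higher.

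Of the 48 pathway genes tested in all 4 lines, 4 were lower in all of them and 1 was higher. Of all 12816 genes tested in all lines, 2.51% were lower in all 4 and 0.577% higher. DCTD, which deaminates dCMP to the dUMP that TYMS uses, fell by 0.60 on the log2 scale in A549, by 0.63 in ES2, by 0.50 in MV3 and by 0.44 in PANC1. SHMT2, the mitochondrial hydroxymethyltransferase that feeds one-carbon units into the folate cycle, fell by 0.46, 0.63, 0.75 and 0.38 in the same order. PNP, which cleaves purine nucleosides, fell by 1.00 in A549, by 1.03 in ES2, by 0.87 in MV3 and by 0.38 in PANC1, and its effect differed between lines (Cochran's Q, adjusted p = 0.0264). NT5C, a nucleotidase that dephosphorylates deoxynucleoside monophosphates, fell by 0.47, 0.97, 0.36 and 0.54. CMPK1, the UMP and CMP kinase, was higher by 0.55 in A549, by 0.45 in ES2, by 0.20 in MV3 and by 0.21 in PANC1, where it turned to -0.54 (adjusted p = 0.0223) at equal sums of FPKM, 0.15 above the median of all genes on that scale. Several of these calls were lost in fits that left out 1 library, with the sign kept in each such fit. In PANC1, DCTD was called only without siC replicate 3 and lost without each of the others (-0.47 to -0.34, adjusted p 0.0681 to 0.115), and CMPK1 was called only without siC replicate 2 and lost without the others (0.18 to 0.23, adjusted p 0.05 to 0.12). Without siC replicate 1 or 2 or siI1 replicate 1 or 2, PANC1 lost the calls of SHMT2 (-0.39 to -0.33, adjusted p 0.0547 to 0.082) and PNP (-0.40 to -0.31, adjusted p 0.0592 to 0.0803). Without any siC library or siI1 replicate 3, A549 lost those of SHMT2 (-0.50 to -0.42, adjusted p 0.0575 to 0.0888) and NT5C (-0.49 to -0.46, adjusted p 0.0556 to 0.0621). CMPK1 in ES2 was lost without siI1 replicate 2 or 3 (0.44 to 0.45, adjusted p 0.0535 to 0.0553).

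The 2 largest falls and the 2 largest rises called in each line, where not named above, were as follows, and several of them were called in other lines too. In MV3, MTHFD2, the mitochondrial folate enzyme, went from 19.7 ± 0.429 to 10.1 ± 1.05 FPKM (log2 fold change -0.93, adjusted p = 0.00034; it was also lower in PANC1), and TK2, the mitochondrial thymidine kinase, rose by 0.25 (adjusted p = 0.011). In PANC1, ADA, adenosine deaminase, went from 33.0 ± 3.03 to 66.2 ± 1.59 FPKM (log2 fold change 1.00, adjusted p = 0.000953), and GUK1, guanylate kinase, from 19.3 ± 2.34 to 27.5 ± 0.819 FPKM (0.50, adjusted p = 0.0107). At equal sums of FPKM neither rise was called: ADA stood at 0.25 (adjusted p = 0.166) and GUK1 at -0.23 (adjusted p = 0.192), which is 0.93 and 0.45 above the median of all genes on that scale. ADSS, which acts in AMP synthesis, fell in PANC1 by 0.67 (adjusted p = 0.00124) and was also lower in MV3, and DHODH, of pyrimidine synthesis, fell by 0.69 (adjusted p = 0.0203) and was also lower in ES2 and MV3. In ES2, CDA, cytidine deaminase, went from 9.48 ± 3.05 to 3.13 ± 0.965 FPKM (log2 fold change -1.44, adjusted p = 0.0182), and NT5C2, a cytosolic nucleotidase, rose by 0.46 (adjusted p = 0.00273). In A549, PPAT, which commits ribose phosphate to purine synthesis, rose by 0.59 (adjusted p = 0.0128) and IMPDH2, of GMP synthesis, by 0.56 (adjusted p = 0.00384). IMPDH2 was also higher in ES2 and MV3. PPAT fell by 0.39 in MV3 (adjusted p = 0.000705), and its effect differed between lines (Cochran's Q, adjusted p = 0.00751). The call of DHODH in PANC1 held only without siI1 replicate 3 and was lost without each other library (-0.73 to -0.62, adjusted p 0.0553 to 0.0597). DHODH also lost its call in 5 of 6 such fits in ES2 (adjusted p 0.0841 to 0.14) and in 3 of 6 in MV3 (adjusted p 0.0563 to 0.0619). IMPDH2 lost its MV3 call in 3 of 6 (adjusted p 0.0555 to 0.0699), and MTHFD2 its PANC1 call without siC replicate 1 (-0.33, adjusted p = 0.0503). The call of CDA was lost without siC replicate 1 (-1.35, adjusted p = 0.0602) or siC replicate 2 (-1.26, adjusted p = 0.057), and that of PPAT in A549 without siI1 replicate 2 (0.58, adjusted p = 0.0501).

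**Figure D5:**
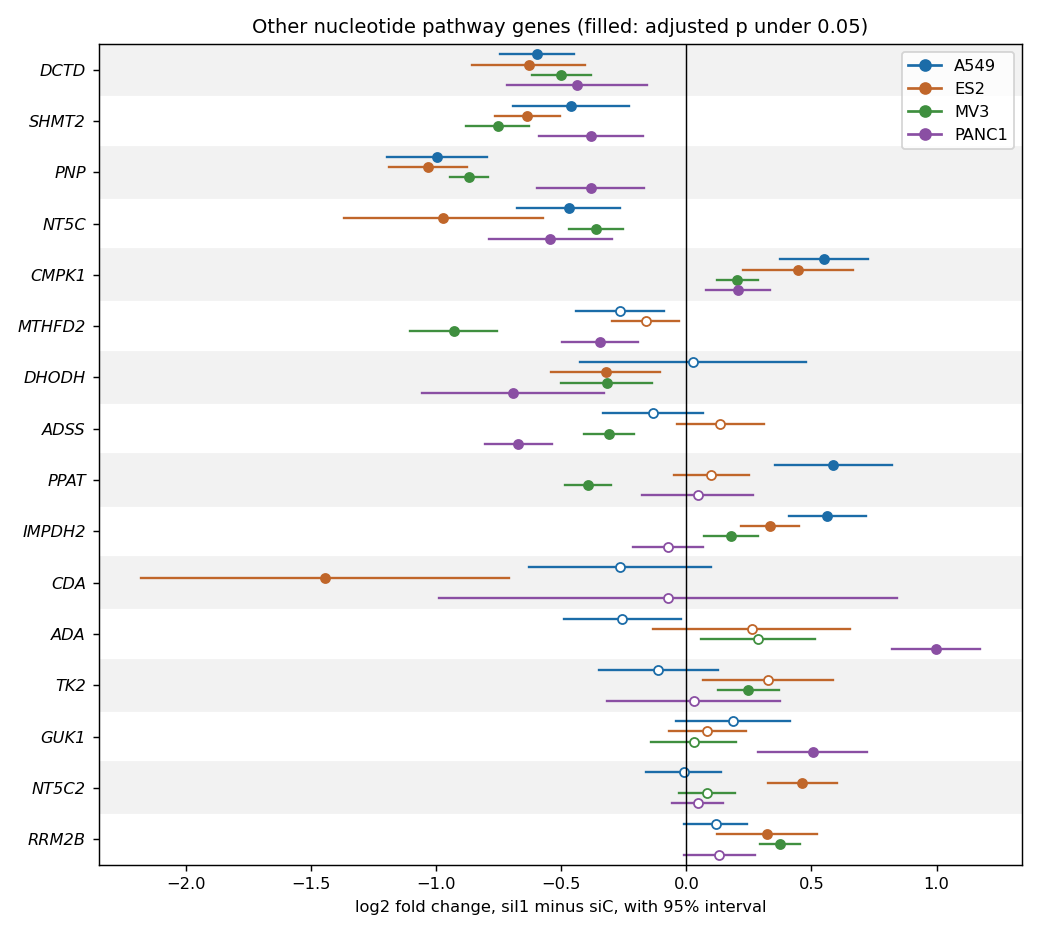
log2 fold change of 16 other nucleotide pathway genes in each line, siI1 minus siC on the log2(FPKM + 0.5) scale, with 95% intervals, filled where the adjusted p was under 0.05. DCTD, SHMT2, PNP and NT5C lie left of 0 in all 4 lines and CMPK1 right of it, though at -0.54 in PANC1 at equal sums of FPKM.

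Patterns over the 24 libraries were compared as the log2 level minus the siC mean of the same line. This is a description, since libraries of 1 line and arm share cells and treatment. Among 9650 protein-coding genes, DTYMK was most like CBX6 (r = 0.99), SMARCD2 (0.98) and UBAC1 (0.98). TYMS was most like IPO5 (0.96), TPX2 (0.95) and WNK1 (0.95), and TK1 like MCM2 (0.95), PDIA4 (0.94) and CRLF3 (0.93). RRM1 came closest to HNRNPU (0.95), NUSAP1 (0.93) and HNRNPA2B1 (0.93), and RRM2 to GARS (0.94), TMEM106C (0.94) and HSPA8 (0.92). For CTPS1 the closest were DDX23 (0.93), CLTA (0.93) and SLC7A5 (0.93), for DUT CAV1 (0.93), MAP7D3 (0.92) and SLC39A6 (0.91), and for SAMHD1 PTPRF (0.92) and ATE1 (0.90). DCK had the loosest matches, FAM210A (0.83), BLOC1S5 (0.82) and C17orf58 (0.81). Among the members themselves, TYMS and TK1 were most alike (r = 0.89), followed by DUT and SAMHD1 (0.80), while RRM1 and RRM2 had r = 0.20 and DUT and CTPS1 went opposite ways (r = -0.67).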

How the data were processed

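Total RNA-seq of 24 libraries, 3 per cell line and siRNA, was used. Per the labels and the methods, 3 biological replicates per condition were depleted of rRNA, and directional libraries were sequenced. The authors clipped reads with Cutadapt 1.14, aligned them to hg38 with HISAT2 2.1.0 and SAMtools 1.5, counted genes of Ensembl release 89 with featureCounts 1.5.3 and tested with edgeR 3.30.3. The deposited values are FPKM. The unit is not named there and was worked out from the values, which gave whole reads for 100% of values (tolerance 0.02 reads). The authors' deposited log2 fold changes, p-values and FDR were not used.

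Each line was tested with limma 3.58.1 (R 4.3.3, intensity trend, two-sided) on log2(FPKM + 0.5), which understates changes of low genes, over genes whose mean reached 0.5 FPKM, with Benjamini-Hochberg adjustment over all of them and a threshold of 0.05. Lines were compared by Cochran's Q, set against an F distribution, with adjustment over 12816 genes. Code was tested on simulated data. Replicates differed by more than sampling noise (chi-square per gene 1.54 to 15.1 over 24 pairs). Coordinates are from GENCODE release 44 (hg38), promoters from RefSeq. Python 3.11.15 was used with pandas 2.3.3.

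Members and lists were chosen with earlier results of these data known. Other pathway genes were named if called in 1 direction in all 4 lines, or among the 2 largest falls or rises called in a line. For each member the 3 most similar genes were named, and 1 gene that this rule selects is not reported here. Scaling, pseudocount, filter, variance model, reads and replicates were varied.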

Additional observations from a re-analysis of the deposited data

Results flagged for a closer look

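The effect of the knockdown differed between the 4 cell lines, by Cochran's Q with an adjusted p under 0.05, for 7 members, against 28.0% of all genes tested in the 4 lines. RRM2 fell in ES2 and MV3 and rose in PANC1, where the sign turned at equal sums of FPKM (adjusted p = 0.00496). SAMHD1 rose in ES2 and fell in MV3 (adjusted p = 0.00549). RRM1 was lower in 3 lines but not in A549 (adjusted p = 0.01). Its ES2 call was lost in 5 of 6 fits that left out 1 library, with the sign kept, and under several settings. DUT was higher in ES2 alone among the 4 tests (adjusted p = 0.0144), though some other settings also called it higher in A549 or lower in PANC1. CTPS1 was lower in A549 and MV3 (adjusted p = 0.019), though the difference was not called at equal sums of FPKM (adjusted p = 0.0994). Its A549 call was lost in 4 of 6 fits that left out 1 library and under some settings. DTYMK was lower in all 4 lines but by different amounts (adjusted p = 0.0232). TK1 was lower in A549, MV3 and PANC1 and was not called in ES2 (adjusted p = 0.034 over the 4 lines). PANC1 was harvested later than the other lines, and the part of that time in these differences cannot be told apart from that of the line. The fall of IGF2BP1 itself also differed between lines (Cochran's Q, adjusted p = 0.0255), and its part in these differences was not tested. Groups of 3 libraries were not searched for single outlying values.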

How the results depend on the processing

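Over the 36 member effects, 324 comparisons with another setting and 216 with 1 library left out gave 484 with the same sign and call, 34 lost and 16 gained calls, and 6 changes of sign. The falls of DTYMK kept their call throughout. At equal sums of FPKM, signs changed for RRM2 (-0.44) and CTPS1 (-0.55) in PANC1 and DCK in ES2 (0.012), members lower in PANC1 became 9 and higher 0, members higher in A549 1, and other pathway genes 42 lower and 0 higher in PANC1 and 4 higher in A549. All genes then gave 8870 lower and 96 higher in PANC1 and 1419 lower in ES2. Median centring gave 2 members higher in A549 and 2 in PANC1, and 7 other pathway genes lower in PANC1. On recovered reads (voom), 1 member was higher in A549 and 2 in PANC1, 7 other pathway genes were higher in ES2, and A549 had 2339 genes lower and 1837 higher. Without an intensity trend, 2 members were lower in A549, 2 in ES2 and 0 higher in PANC1, with 13 other pathway genes lower in ES2, 3 higher in A549 and 5 higher in PANC1, and 633 genes higher in A549. A minimum mean of 1 FPKM gave 1 member higher in A549, and no filter 0 higher in PANC1.

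The replicate block, replicate number as a term, gave 2 members lower in A549 and 0 higher in PANC1. Other pathway genes were then 3 lower and 2 higher in A549, 11 lower in ES2 and 7 lower in PANC1, and all genes 622 lower and 379 higher in A549 and 1443 lower and 1169 higher in ES2. Libraries with the same number did not deviate together (r from -0.06 to 0.07, 0 of 12 pairs over 0.1). Noise in single genes can hide a weak shared deviation, so this does not settle whether the numbers pair the samples.

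Leaving out 1 library, the ranges were -0.0037 to 0.088 for DUT in MV3 and -0.038 to 0.165 for SAMHD1 in A549. Members lower ranged from 2 to 4 in A549 and 2 to 5 in ES2, and members higher in PANC1 from 0 to 2. Other pathway genes lower ranged from 3 to 6 in A549, 11 to 15 in ES2 and 4 to 9 in PANC1, and higher from 3 to 6 in A549, 2 to 4 in ES2 and 4 to 10 in PANC1. All genes lower ranged from 796 to 1036 in A549 and 1237 to 1954 in PANC1, and higher from 526 to 761 in A549, 1141 to 1423 in ES2 and 1041 to 1888 in PANC1. In A549, the line with the fewest reads, standard errors were largest for DCK. The cause of these changes was not tested. The count of members that differed between lines was 7 or 8 under each setting run, but not the same members: at equal sums of FPKM, CTPS1 left and TYMS and DCK entered, and in 1 fit with an interaction TYMS entered. Of all genes, 3589 of 12816 differed with the settings used throughout. At equal sums of FPKM 5544 of 12946 did so, and in 1 fit with an interaction 5763 of 12816.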
